A study of Mus musculus with 30 samples.

Results

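The response of bone marrow-derived macrophages to 6 h of lipoteichoic acid (LTA) was compared between mice lacking Ticam2 (genotype Ticam2-/-, written KO) and wild-type mice (WT). The measure was the genotype difference in the response, which is the KO change with LTA minus the WT change with LTA. It rests on 12 of the 30 libraries of the study, in 4 groups of 3: KO macrophages given LTA at 100 ng/mL for 6 h, untreated KO macrophages, WT macrophages given the same LTA exposure, and untreated WT macrophages. Per the labels, both genotypes are C57BL/6J, marrow cells were grown in medium conditioned by L929 cells as the source of M-CSF, and 3 KO and 3 WT animals supplied the replicates. The sources used here do not say which libraries share an animal or which part of Ticam2 the allele lacks. The remaining 18 libraries hold LTA for 2 h and lipopolysaccharide (LPS, 10 ng/mL) for 2 h and 6 h in both genotypes.

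LTA is a glycolipid of the Gram-positive cell wall and is sensed chiefly by Toll-like receptor 2, whose adaptor MyD88 activates NF-kB and MAP kinases and so induces cytokine and chemokine genes. Ticam2 encodes TRAM, a sorting adaptor best known for linking Toll-like receptor 4 to TRIF. TRIF leads to the kinase TBK1 and the transcription factor IRF3, then to interferon beta, whose receptor in turn switches on the interferon-stimulated genes. The comparison asks which parts of the LTA response differ when TRAM is missing.

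Of 15119 genes tested, 6787 (44.9%) had a genotype difference in the LTA response (edgeR quasi-likelihood test, Benjamini-Hochberg adjusted p under 0.05). It was above 0 for 3752 genes (24.8%) and below 0 for 3035 (20.1%). This split turned with relative log expression factors (3209 above, 3697 below) and DESeq2 (2876 and 3453), and with total counts it was 7971 and 1262. LTA raised 996 genes (6.59% of those tested) at least 2-fold in KO cells and 2160 (14.3%) in WT cells. It lowered 677 genes (4.48%) at least 2-fold in KO cells and 2658 (17.6%) in WT cells. The 4818 genes of the WT response were sorted by what KO cells did. A response was called different where the genotype difference passed the test and reached 1.5-fold, a mark met by 3988 genes (26.4%) in all. It was then called lost if the KO log2 change was under 25% of the WT change or of opposite sign, blunted if it was smaller than in WT but at or above that mark, and stronger if it exceeded the WT change. All other genes were called kept.

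Of the 2160 induced genes, 449 (20.8%) lost the response in KO cells, 769 (35.6%) had a blunted one, 930 (43.1%) kept it and 12 (0.556%) had a stronger one. Of the 2658 lowered genes, 594 (22.3%) lost the response, 1312 (49.4%) were blunted, 752 (28.3%) kept it and 0 were stronger. With total counts as the scale, 236 induced genes were lost, 385 blunted, 603 kept and 24 stronger, and 1150 lowered genes were lost, 2823 blunted and 1 stronger. The median KO change was 48.2% of the WT change on the log2 scale for induced genes and 37.1% for lowered genes. The WT libraries that chose these genes also enter the genotype difference, so the class counts describe the 2 responses and are not a test. Just outside the 1.5-fold mark stood Morf4l2, with a genotype difference of -0.58 on the log2 scale and 47.7% of the WT change. Just inside it stood Rel, an NF-kB subunit gene, at -0.59 and 76.0%. Around the 25% mark, Triobp retained 24.8% of the WT change and was sorted as lost, and Cdkn1a, a cell cycle inhibitor gene, retained 25.7% and was sorted as blunted.

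**Figure D1:**
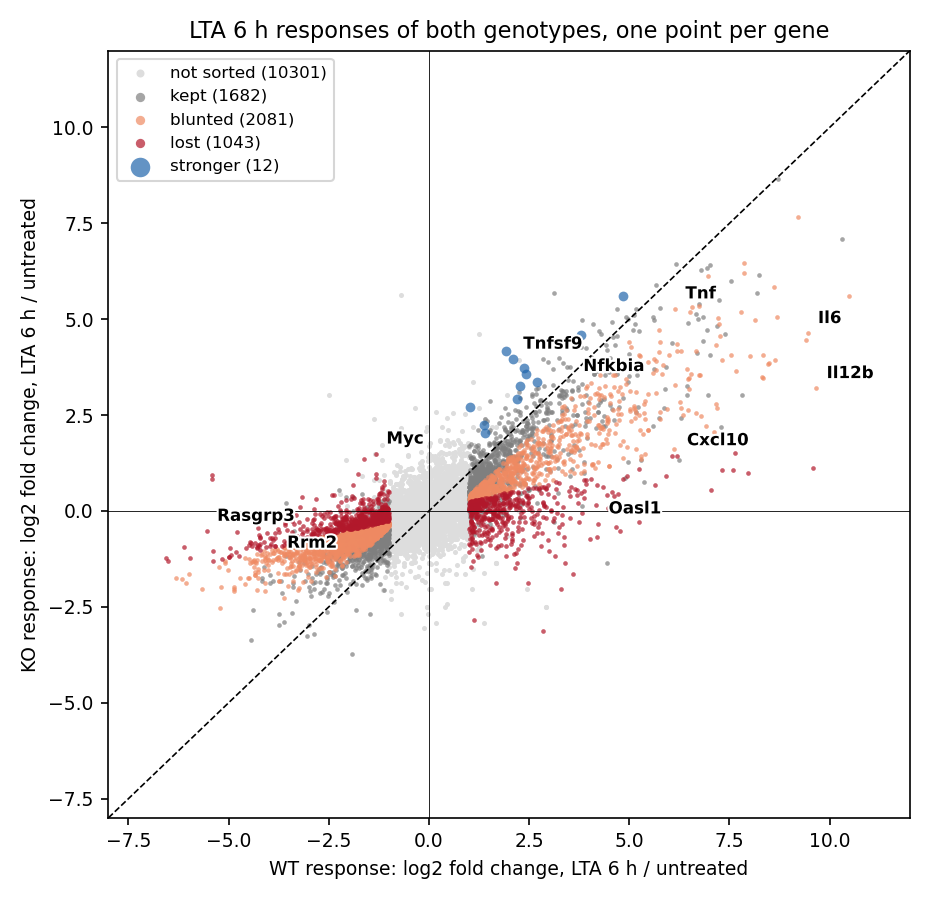
Log2 fold change with LTA for 6 h in KO cells (vertical axis) against that in WT cells (horizontal axis), one point per gene, coloured by response class with the number of genes in the key; the dashed line marks equal responses, and 1 of 15119 genes lies outside the axes. Most sorted genes sit between the dashed line and the horizontal zero line, where the KO change is smaller than the WT change.

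The 12 libraries held 10641070 to 12389352 counts each. Levels below are CPM computed on TMM-normalised library sizes, and changes are log2 with standard errors, n = 3 per group. The TMM factors were 1.010 to 1.015 in KO with LTA, 1.144 to 1.151 in untreated KO, 0.746 to 0.750 in WT with LTA and 1.132 to 1.133 in untreated WT. With total counts alone as the scale, the median genotype difference over all genes was 0.446 in place of 0.0309, and the median WT response -0.578. Changes are therefore relative to the bulk of genes, and in bulk RNA fewer cells of a type and less RNA per cell cannot be told apart. Ticam2 held 10, 15 and 13 counts in KO libraries with LTA and 10, 9 and 5 in untreated KO libraries, against 233, 260 and 212 in WT with LTA and 130, 145 and 120 in untreated WT. Its KO-to-WT log2 difference was -4.49 ± 0.17 with LTA and -4.01 ± 0.21 untreated. All 10 macrophage genes checked, among them Csf1r, Spi1, Adgre1, Cd68 and Lyz2, were present in each library, Lyz2 at 19700 CPM or more. Red cell and platelet markers summed to 5937 to 6627 CPM in KO with LTA, 5142 to 5502 in untreated KO, 8967 to 9898 in WT with LTA and 5538 to 5964 in untreated WT. Of 8 such markers tested, 5 had a genotype difference below 0 and 0 above (background 20.1% below and 24.8% above over all genes tested). Neutrophil markers summed to 25 to 26.2 CPM in KO with LTA, 18.4 to 22.2 in untreated KO, 51.4 to 52.0 in WT with LTA and 22.8 to 28.6 in untreated WT, with 3 of 6 below 0. The 6 libraries with LTA for 2 h stood apart, with 1452884 to 2191199 counts each, 0 counts of the haemoglobin gene Hbb-bs (23477 to 32286 in the 12 libraries above) and 69 to 141 counts of the liver gene Alb (0 in the 12), and the harvest text of the labels names 6 h alone. B cell markers summed to 4.168 to 5.128 CPM in KO with LTA and 13.8 to 16.6 in untreated KO. In WT they summed to 2.385 to 3.677 CPM with LTA and 8.549 to 8.992 untreated. Markers of T and NK cells, dendritic cells and mast cells each summed to 4.428 CPM or less in every library. Fibroblast and stromal markers summed to 11.3 to 13.1 CPM in KO with LTA, 9.45 to 9.72 in untreated KO, 16.65 to 21.8 in WT with LTA and 10.8 to 12.4 in untreated WT. Liver markers summed to 48.96 to 52.98 CPM in KO with LTA, 50.6 to 53.1 in untreated KO, 65.75 to 68.4 in WT with LTA and 51.1 to 57.1 in untreated WT, with Alb and Fgb at 0 counts in all 12. With total counts as the scale, tested liver markers summed to 49.03 to 51.26 CPM in WT with LTA and 57.8 to 64.7 untreated. In KO these were 49.55 to 53.5 with LTA and 57.9 to 61.0 untreated. In WT, tested red cell and platelet markers then summed to 6687 to 7408 with LTA and 6268 to 6756 untreated. Tested neutrophil markers were 38.2 to 38.7 and 25.3 to 32.3, and fibroblast and stromal ones 11.93 to 15.4 and 11.88 to 13.7. In KO on that scale, red cell and platelet markers summed to 6025 to 6693 with LTA and 5912 to 6331 untreated. Neutrophil markers there were 24.8 to 26.4 and 20.6 to 25.2, and fibroblast and stromal ones 10.85 to 12.8 and 10.4 to 10.8. The part of these marker lists in the results was not tested. Replicate 1 of untreated WT stood apart from replicates 2 and 3 (chi-square per gene 5.19 and 6.25, beside 1.2 to 2.7 for all other pairs within the 4 groups), and without it 6504 differences were called, with 440 induced genes lost and 766 blunted and 591 lowered genes lost and 1282 blunted.

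The genes that lost their induction were led by interferon-pathway genes. Cxcl10, a chemokine of interferon responses, stood at 160, 153 and 154 CPM in KO with LTA and 57.1, 56.3 and 58.0 in untreated KO, against 6778, 6625 and 6730 in WT with LTA and 93.2, 91.2 and 93.5 in untreated WT. All KO libraries with LTA thus lay above both untreated groups and far below WT with LTA. Cxcl10 rose by 1.44 ± 0.04 in KO and by 6.18 ± 0.05 in WT, a genotype difference of -4.73 ± 0.06 (edgeR quasi-likelihood, Benjamini-Hochberg adjusted p = 2.2e-51). Rsad2, which encodes the antiviral enzyme viperin, was at 76.5, 81.1 and 75.9 CPM in KO with LTA and 61.7, 55.8 and 57.0 in untreated KO, against 1941, 1828 and 1822 in WT with LTA and 87.9, 85.4 and 83.9 in untreated WT. In KO cells the level with LTA did not reach that of untreated WT cells. Isg15, a ubiquitin-like modifier, had 130, 123 and 120 CPM in KO with LTA and 95.5, 93.2 and 97.2 in untreated KO, against 1960, 1882 and 1971 in WT with LTA and 163, 171 and 169 in untreated WT. Its KO change was 0.38 ± 0.05 and its WT change 3.53 ± 0.05, so that 10.9% of the log2 change was retained.

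The stretch of 250 bases before the start of these 3 genes is shown with that of Nfkbia, an NF-kB target that kept its response, to set the sequence of lost and kept genes side by side. All 4 lie on the minus strand of GRCm38.p6 (RefSeq), and each is printed 5′ to 3′ along its gene and ends at the base before the start. Capitals mark each match, on either strand, to a pair of GAAA with any 2 bases between them, the core of the interferon-stimulated response element, or to GGG and CC with any 5 bases between them, the outline of an NF-kB site, and touching or overlapping matches run together. The windows are chr5:92348890-92349139 for Cxcl10, chr4:156200819-156201068 for Isg15, chr12:26456453-26456702 for Rsad2 and chr12:55492648-55492897 for Nfkbia.
Cxcl10: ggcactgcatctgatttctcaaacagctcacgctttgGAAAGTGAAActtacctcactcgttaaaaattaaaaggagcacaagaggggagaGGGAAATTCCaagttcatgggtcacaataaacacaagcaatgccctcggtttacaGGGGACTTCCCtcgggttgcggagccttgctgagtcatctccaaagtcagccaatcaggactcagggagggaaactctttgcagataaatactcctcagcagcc
Isg15: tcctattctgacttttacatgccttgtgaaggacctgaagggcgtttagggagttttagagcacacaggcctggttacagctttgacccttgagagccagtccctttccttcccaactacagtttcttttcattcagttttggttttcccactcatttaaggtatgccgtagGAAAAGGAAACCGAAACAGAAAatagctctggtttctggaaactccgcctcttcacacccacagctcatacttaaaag
Rsad2: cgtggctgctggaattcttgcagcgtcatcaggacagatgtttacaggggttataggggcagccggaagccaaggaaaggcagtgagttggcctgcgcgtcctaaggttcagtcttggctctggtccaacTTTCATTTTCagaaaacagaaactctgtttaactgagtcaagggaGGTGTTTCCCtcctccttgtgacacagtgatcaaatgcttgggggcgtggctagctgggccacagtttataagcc
Nfkbia: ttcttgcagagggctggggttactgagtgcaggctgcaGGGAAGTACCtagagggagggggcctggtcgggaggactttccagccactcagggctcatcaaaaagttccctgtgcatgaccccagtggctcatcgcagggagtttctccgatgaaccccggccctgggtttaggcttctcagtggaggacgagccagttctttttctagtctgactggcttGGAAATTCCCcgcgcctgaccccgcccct

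In these windows Isg15 held 3 overlapping matches to the GAAA pair, Cxcl10 and Rsad2 held 1 each, and Nfkbia held 0. The NF-kB outline matched 3 times in Cxcl10, 2 times in Nfkbia, 1 time in Rsad2 and 0 times in Isg15. RefSeq promoters were matched to 9558 of 11655 protein-coding genes tested on the chromosomes the table covers (82.0%). Only the 250 bases before the start were searched, as in the windows above. The GAAA pair on either strand was found in 42 of 300 promoters of genes that lost induction (14.0%), in 24 of 543 with blunted induction (4.42%) and in 14 of 429 that kept it (3.26%), beside 280 of all 9558 (2.93%). Outside the interferon and IRF3 gene lists, 23 of 254 promoters of lost genes held it (9.06%). The NF-kB outline was common everywhere, in 57.7% of lost, 61.5% of blunted, 67.6% of kept and 61.5% of all promoters. A STAT outline, TTCNNNGAA, was found in 7.0%, 6.26% and 8.86% of these 3 classes and 5.97% of all, and the AP-1 outline TGANTCA in 6.33%, 7.37%, 5.59% and 4.37%. A match describes letters in this window, and binding was not measured.

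Members of the interferon pathway are given by role. Counts of list members here and below stand beside a background of 20.1% below 0 and 24.8% above 0 over all genes tested. Of 14 genes listed as primary targets of IRF3, 13 had a genotype difference below 0 and 0 above, with medians of 0.86 in the KO response and 4.23 in the WT response. The 8 that lost their response were Peli1, Rsad2, Ifit1, Cxcl10, Isg15, Isg20, Ifit2 and Ifit3. Ccl4, Cxcl9, Ccl5, Ifi205 and Cxcl11 were blunted. Ifnb1, the interferon beta gene itself, was sorted as kept on very few counts: 7, 4 and 3 in KO with LTA and 0, 1 and 2 in untreated KO, against 50, 57 and 49 in WT with LTA and 4, 4 and 2 in untreated WT. The KO libraries with LTA were all under the WT libraries with LTA, while the untreated libraries overlapped. Its genotype difference of -2.18 ± 1.16 missed the threshold (edgeR quasi-likelihood, Benjamini-Hochberg adjusted p = 0.14, 95% interval -4.51 to 0.16), so these counts do not settle it.

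Interferon-stimulated genes moved together. Of 56 tested, 54 had a genotype difference below 0 and 0 above (52 below and 2 above with total counts), with a median of -1.78. The median response was -0.15 in KO and 1.57 in WT. Of the 41 induced at least 2-fold in WT, 40 lost the response, and Cd274, which encodes the ligand PD-L1, was blunted. In KO cells LTA raised 9 of the 56 and lowered 26 (3 and 40 with total counts), beside 25.7% raised and 26.5% lowered over all genes tested. Of the 56, 24 were called down in KO and up in WT, beside 197 of all 15119 genes tested. Oasl1, an oligoadenylate synthetase-like gene, was at 17, 18.4 and 19.3 CPM in KO with LTA and 24.3, 21.9 and 22.9 in untreated KO, against 461, 460 and 463 in WT with LTA and 22.5, 24.8 and 26.8 in untreated WT. The 3 KO libraries with LTA were the lowest of all 12, with no overlap with untreated KO. Its response was -0.33 ± 0.08 in KO and 4.22 ± 0.06 in WT.

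Irf7, the interferon regulatory factor that amplifies the response, had 87.4, 93.4 and 92 CPM in KO with LTA and 121, 123 and 118 in untreated KO, against 350, 357 and 352 in WT with LTA and 167, 159 and 159 in untreated WT. It fell in KO by 0.41 on the log2 scale and rose in WT by 1.13 ± 0.04. Among the sensors, Ifih1, which encodes the RNA helicase MDA5, changed by 0.10 ± 0.06 in KO, which did not pass the test, and by 2.91 ± 0.05 in WT. Mx1, an antiviral GTPase, changed by 0.11 ± 0.11 in KO, also short of the threshold, and by 3.35 ± 0.07 in WT. Cmpk2, a mitochondrial nucleotide kinase gene next to Rsad2, changed by -0.18 ± 0.06 in KO and 3.51 ± 0.05 in WT. The DNA sensor family gene Ifi204 had -0.54 ± 0.05 in KO and 1.44 ± 0.04 in WT.

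Interferon-inducible GTPases, which act on vacuoles of intracellular microbes, had a genotype difference below 0 in 17 of 18 cases and above 0 in 0. Their median response was -0.28 in KO and 2.52 in WT, and of 16 induced genes 11 were lost and 5 blunted. The blunted ones were the guanylate-binding protein genes Gbp2, Gbp3, Gbp5, Gbp6 and Gbp10. Igtp changed by -0.12 ± 0.07 in KO and 2.63 ± 0.05 in WT, Ifi47 by -0.29 ± 0.05 in KO and 2.41 ± 0.05 in WT, and Irgm1 by -0.20 ± 0.05 in KO and 1.51 ± 0.05 in WT. Counts within the Gbp, Tgtp and H2 families can be split between near-identical copies and are uncertain. In antigen presentation by MHC class I, 17 of 18 genes had a difference below 0 (12, and 1 above, with total counts). Tap1, a subunit of the peptide transporter of the endoplasmic reticulum, had 53.9, 52.4 and 49.99 CPM in KO with LTA and 73.6, 71.2 and 72.9 in untreated KO, against 324, 316 and 339 in WT with LTA and 84.7, 85.7 and 85.1 in untreated WT. Its KO libraries with LTA were the lowest of the 12. Outside these lists, the lost genes also included Calhm6, at 0.16 ± 0.11 in KO (not past the threshold) and 4.18 ± 0.07 in WT, and Il15ra, the interleukin 15 receptor alpha chain, at -0.67 ± 0.21 in KO and 3.38 ± 0.11 in WT.

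Over all genes tested, 338 were called in opposite directions in the 2 genotypes with a called difference, 197 of them down in KO and up in WT and 141 up in KO and down in WT (151 and 367 with total counts). Of the 449 genes that lost induction, LTA raised 96 in KO cells (21.4%, background 25.7%) and lowered 77 (17.2%, background 26.5%), and 276 were not called. KO was called lower than WT with LTA in 436 of the 449 (background 28% over all genes tested) and lower in untreated cells in 107 (23.8%, background 7.47%). The sorting used these same libraries, so the shares describe the class and are no support for it. For Isg15 the untreated difference was -0.81, for Cxcl10 -0.70 and for Rsad2 -0.56, each past the threshold.

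Inflammatory cytokine genes were mostly blunted: KO cells induced them, to lower levels. Il6 reached 162, 155 and 163 CPM in KO with LTA against 6.61, 6.81 and 5.97 in untreated KO, and 5271, 5067 and 5306 in WT with LTA against 6.99, 8.43 and 6.90 in untreated WT. No library with LTA overlapped an untreated one in either genotype, and KO with LTA lay far under WT with LTA. The response was 4.63 ± 0.07 in KO and 9.45 ± 0.07 in WT. Il12b, the shared subunit of interleukins 12 and 23, had the largest negative difference of all genes averaging 2 or more on the log2 CPM scale, at 11.4, 11.7 and 11 CPM in KO with LTA and 1.45, 0.950 and 1.28 in untreated KO, against 941, 1052 and 975 in WT with LTA and 1.07, 1.23 and 1.33 in untreated WT. The difference of -6.47 ± 0.53 passed the test (edgeR quasi-likelihood, Benjamini-Hochberg adjusted p = 5.3e-11), and 33.1% of the WT log2 change was retained.

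Tnf, also blunted, retained a larger share than Il6 and Il12b. It had 1755, 1802 and 1741 CPM in KO with LTA and 47.5, 45.4 and 44.4 in untreated KO, against 4096, 3972 and 4065 in WT with LTA and 58.7, 58.1 and 54.9 in untreated WT. KO cells retained 85.8% of the log2 change, with a genotype difference of -0.87 ± 0.06. Of 25 cytokine genes, 24 had a difference below 0 (23 with total counts) and Tnfsf9 one above 0. Of the 25, 17 were blunted, Il10, Il15, Il18, Il19, Il23a and Tslp were lost, Vegfa was kept, and Tnfsf9 was stronger. Their median response was 2.78 in KO and 6.35 in WT. The interleukin 1 genes were split in size: Il1a changed by 4.47 ± 0.06 in KO and 9.42 ± 0.06 in WT, Il1b by 4.99 ± 0.05 in KO and 8.15 ± 0.05 in WT, and the antagonist Il1rn by 1.73 ± 0.06 in KO and 4.76 ± 0.05 in WT. Il10, an anti-inflammatory cytokine, changed by 0.69 ± 0.22 in KO and 3.92 ± 0.12 in WT.

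Of 16 chemokine genes, 13 had a difference below 0, and Cxcl14 one above 0 (11 and 3 with total counts). Of the 12 induced at least 2-fold in WT, 11 were blunted and Ccl2 was kept. The neutrophil chemokine Cxcl2 had 5780, 5634 and 5751 CPM in KO with LTA and 67.7, 64.3 and 62.5 in untreated KO, against 26975, 27441 and 27157 in WT with LTA and 109, 122 and 122 in untreated WT. The groups were separate, and 82.3% of the log2 change was retained. Cxcl1 retained 67.9%, Ccl3 67.5% and Cx3cl1 44.6%, while Ccl5, counted here with the IRF3 targets, retained 26.4% and stood next to the border of the lost genes.

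Among NF-kB subunits and feedback inhibitors, 27 of 30 had a difference below 0, and Zc3h12c one above 0 (23 and 5 with total counts). Their median response was 2.38 in KO and 3.36 in WT, a smaller gap than for the interferon and cytokine lists. Of 28 induced, 22 were blunted, Birc2 and Nlrc5 lost, and Nfkbia, Nfkbiz, Tnip3 and Zc3h12c kept. Nfkb2, a precursor subunit, changed by 2.01 ± 0.05 in KO and 3.80 ± 0.05 in WT, and Tnfaip3, the ubiquitin-editing inhibitor A20, by 4.08 ± 0.05 in KO and 5.23 ± 0.05 in WT. Secondary inflammatory and antimicrobial genes had 27 of 36 below 0 and 4 above (22 and 7 with total counts), with 20 blunted, 10 kept, 3 lost (Hdc, Tnc and Lipg) and 3 stronger (Mmp9, Hp and Fpr1). Nos2, inducible nitric oxide synthase, was at 23.6, 23.9 and 24.8 CPM in KO with LTA and 0.887, 1.27 and 1.35 in untreated KO, against 272, 292 and 286 in WT with LTA and 2.07, 1.46 and 2.33 in untreated WT. Ptgs2, the inducible cyclooxygenase, changed by 5.18 ± 0.06 in KO and 7.79 ± 0.06 in WT.

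**Figure D2:**
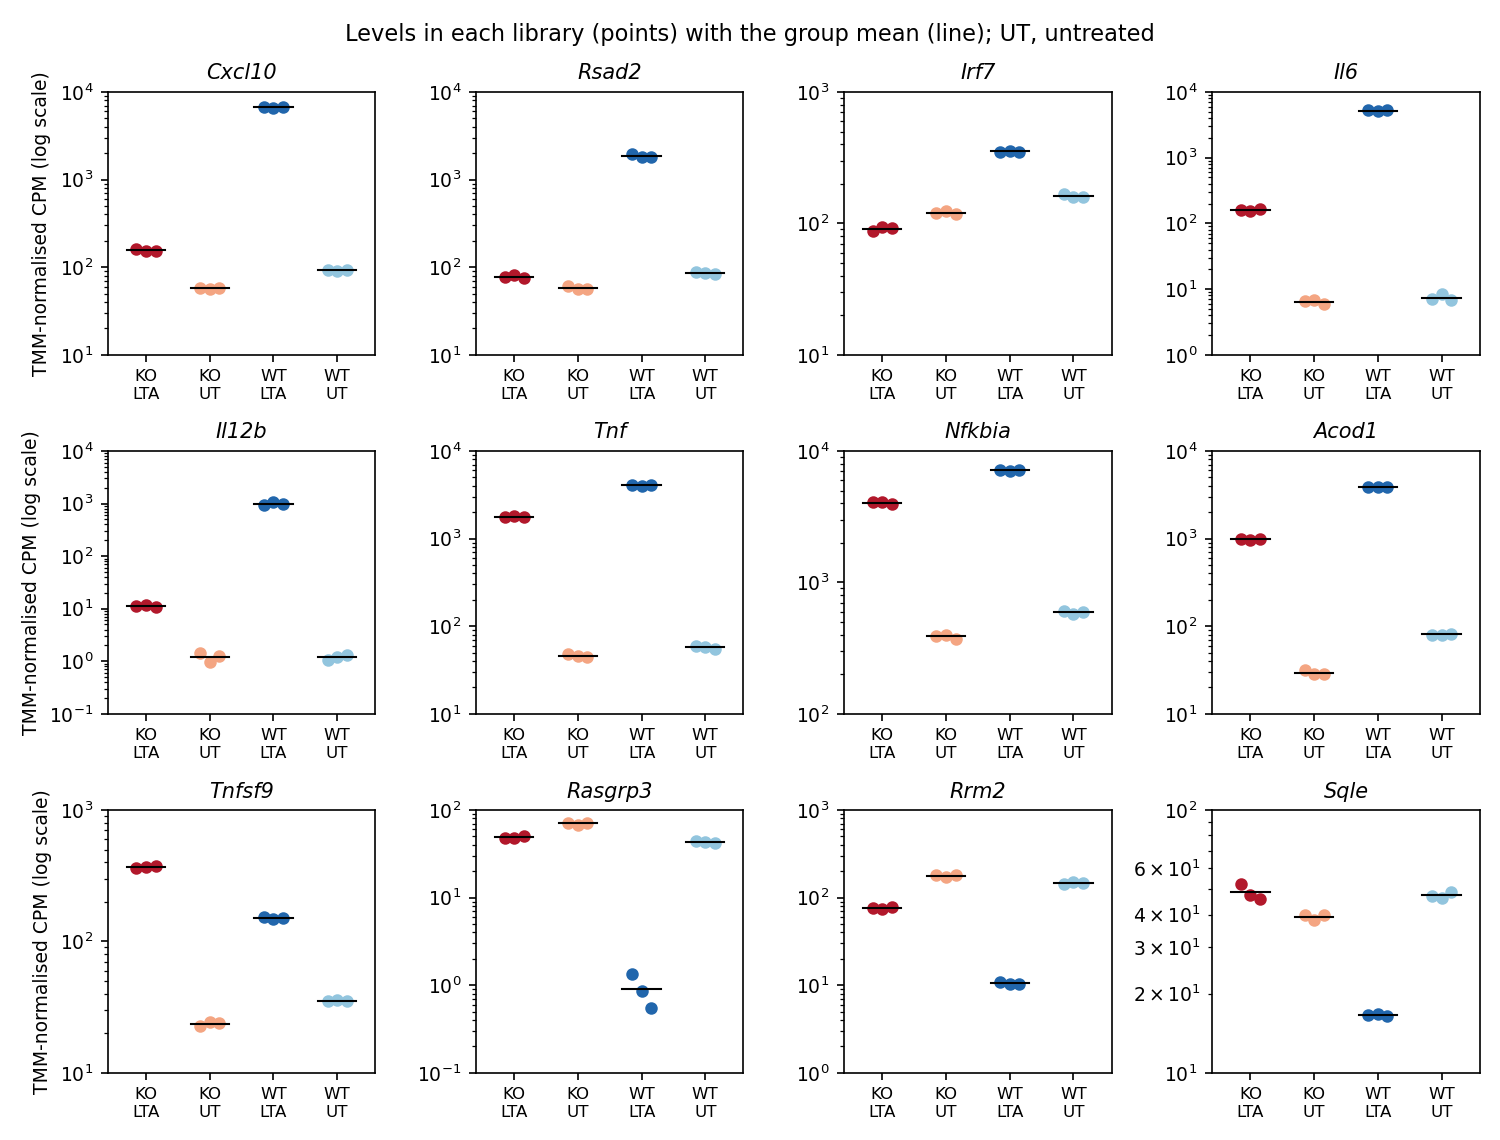
TMM-normalised CPM (log axis) of 12 genes in each of the 12 libraries, by group from left to right KO with LTA for 6 h, KO untreated, WT with LTA for 6 h and WT untreated; points are libraries and lines are means of 3. Cxcl10, Rsad2 and Irf7 stay at 160 CPM or less in KO with LTA, Nfkbia and Tnf come within a few-fold of WT, and Tnfsf9, Rasgrp3, Rrm2 and Sqle are higher in KO than in WT with LTA.

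Co-stimulatory genes, which macrophages use to activate T cells, had 11 of 15 differences below 0 and 0 above (9 and 2 with total counts). Cd86, Slamf1 and Il15ra were lost, 8 were blunted, and Icosl, Cd83, Tnfrsf9 and Cd38 were kept. Cd40 changed by 3.55 ± 0.07 in KO and 6.75 ± 0.06 in WT, with 91.4 to 93.9 CPM in the KO libraries with LTA and 1019 to 1063 in the WT libraries with LTA. Of the Toll-like receptors and adaptors, 11 of 26 were below 0 and 8 above (background 20.1% and 24.8%). This order turned with total counts (5 and 14). The double-stranded RNA receptor gene Tlr3 was lost, at -0.55 ± 0.11 in KO and 1.01 ± 0.08 in WT, and Irak2, a MyD88-pathway kinase gene, was blunted at 2.1 ± 0.05 in KO and 3.02 ± 0.05 in WT.

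Kept genes were of 2 kinds. For 708 of the 930 the genotype difference did not pass the test, and for 222 it passed but was under 1.5-fold. The median kept gene retained 68.3% of the WT log2 change (quartiles 49.3% and 87.2%), so a difference that missed the threshold does not show equal responses. These genes were also lower in level, with a median of 1.72 CPM in KO with LTA and 3.43 in WT with LTA, beside 31.8 and 84.9 for blunted genes. Of the 930, 636 were called lower in KO than in WT with LTA (68.4%, background 28%), a description too, since these libraries chose the genes.

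Nfkbia, which encodes the inhibitor IkB alpha, had 4110, 4070 and 3956 CPM in KO with LTA and 394, 399 and 374 in untreated KO, against 7135, 7094 and 7132 in WT with LTA and 602, 572 and 596 in untreated WT. All 4 groups were separate. The response was 3.38 ± 0.04 in KO and 3.59 ± 0.04 in WT, a genotype difference of -0.21 ± 0.05 (edgeR quasi-likelihood, Benjamini-Hochberg adjusted p = 0.00071), which was 0.20 with total counts. Acod1, which makes itaconate, had 979, 971 and 988 CPM in KO with LTA and 31.9, 28.2 and 28.3 in untreated KO, against 3858, 3892 and 3867 in WT with LTA and 79.1, 80.0 and 82.0 in untreated WT. It kept 90.5% of the WT log2 change from a lower starting level, and the KO-to-WT log2 difference was -1.98 with LTA and -1.45 untreated. Slc7a11, the cystine transporter of glutathione synthesis, kept 92.7%, with KO-to-WT log2 differences of -1.72 with LTA and -1.23 untreated. Tlr2, the LTA receptor gene, had 296, 293 and 293 CPM in KO with LTA and 60.8, 59.2 and 55.3 in untreated KO, against 514, 500 and 488 in WT with LTA and 83.6, 87.0 and 79.4 in untreated WT. The KO libraries were under their WT counterparts in both conditions, and the genotype difference in the response was -0.25 ± 0.07, turning to 0.16 with total counts. Maff and Cd38 had differences that did not pass, with 95% intervals of -1.04 to 0.065 and -1.74 to 0.53.

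The 12 genes with a stronger response in KO began, at the median, from a lower untreated level. Their KO-to-WT median was -0.73 untreated and 0.20 with LTA. The same untreated libraries enter the genotype difference, and a low untreated KO level raises it, so the lower start describes the class and is not a separate result. Tnfsf9, which encodes the 4-1BB ligand, had 363, 365 and 375 CPM in KO with LTA and 22.7, 24.3 and 23.7 in untreated KO, against 152, 149 and 152 in WT with LTA and 35.0, 36.0 and 35.1 in untreated WT. KO was thus higher with LTA and lower untreated, with no overlap, and its genotype difference was 1.87 ± 0.08 (edgeR quasi-likelihood, Benjamini-Hochberg adjusted p = 1.9e-26). Hmox1, heme oxygenase 1, had 808, 801 and 795 CPM in KO with LTA and 170, 170 and 163 in untreated KO, against 723, 740 and 716 in WT with LTA and 267, 282 and 296 in untreated WT. Both groups with LTA were close and the untreated groups further apart, and the difference in response was 0.89 ± 0.06. Lox, lysyl oxidase, had a difference of 0.80 ± 0.15 in its response, with levels under LTA of 94.9, 89.7 and 91.4 CPM in KO and 95.1, 104 and 97.9 in WT. That KO-to-WT difference of -0.11 did not pass the test, while the untreated one of -0.90 did. Pim2, a survival kinase gene, differed by 1.36 ± 0.23, Slc13a3, a dicarboxylate transporter gene, by 1.70 ± 0.25, and the matrix protease gene Mmp9 by 1.16 ± 0.34.

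**Figure D3:**
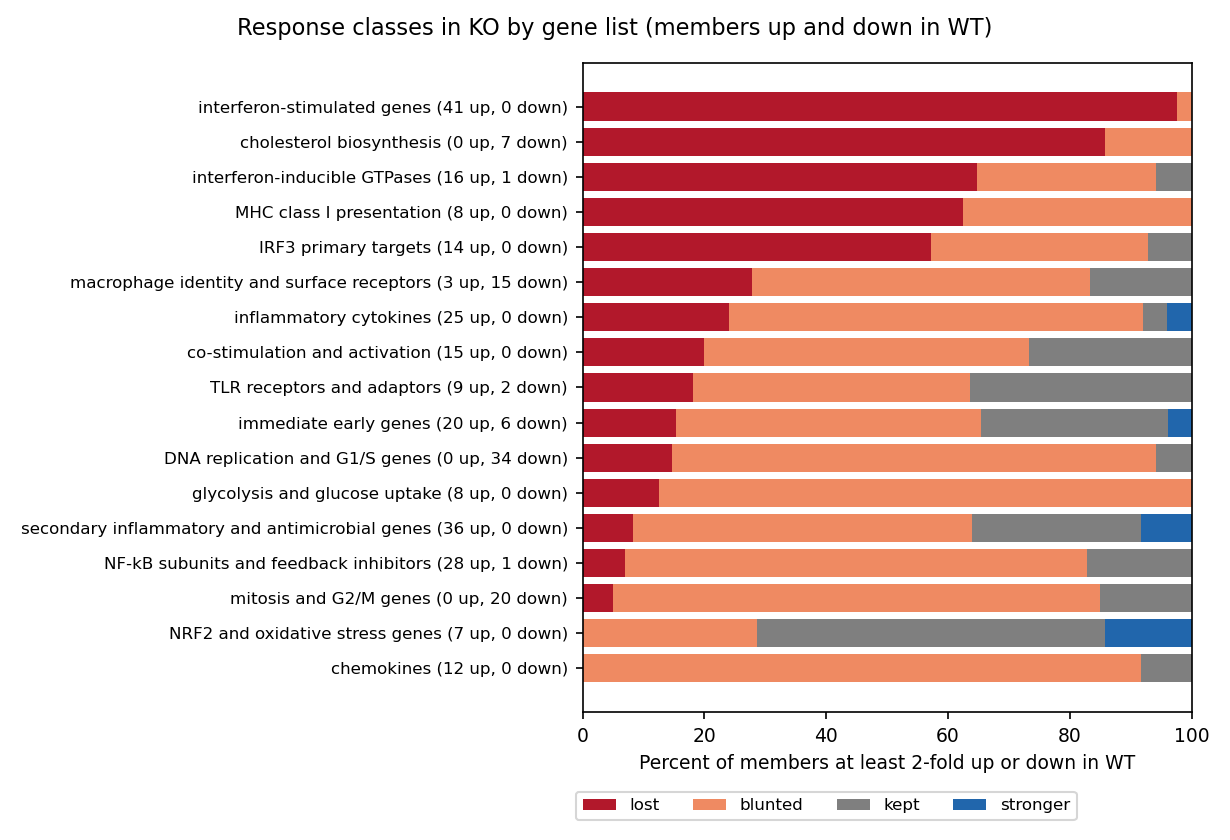
Percent of the members of each gene list that were lost, blunted, kept or stronger in KO, among members at least 2-fold up or down with LTA in WT, for lists with 6 or more such members; numbers up and down are in parentheses. Interferon-stimulated genes are almost wholly lost (40 of 41), chemokines are almost wholly blunted (11 of 12), and cholesterol biosynthesis genes are lost in 6 of 7.

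Many genes that LTA lowered in WT were sorted as lost or blunted in KO (1312 blunted and 594 lost of 2658). A lost fall is one under 25% of the WT log2 change and need not be absent. Of the 594, LTA still lowered 261 in KO cells (43.9%, background 26.5%) and raised 18 (3.03%, background 25.7%), and 315 were not called. These shares describe the class, since the same libraries sorted it. Rasgrp3, a Ras activator gene, had the largest positive difference among named genes, with 48.5, 47.9 and 49.9 CPM in KO with LTA and 71.9, 67.8 and 71.1 in untreated KO, against 1.33, 0.866 and 0.543 in WT with LTA and 44.0, 43.5 and 42.4 in untreated WT. The KO libraries with LTA were above even untreated WT, and the difference was 5.02 ± 0.16 (edgeR quasi-likelihood, Benjamini-Hochberg adjusted p = 2.5e-32). Cx3cr1, the fractalkine receptor gene of resident macrophages, had 78.2, 84.5 and 79.4 CPM in KO with LTA and 130, 136 and 139 in untreated KO, against 11.6, 13.6 and 13.3 in WT with LTA and 188, 189 and 191 in untreated WT. It fell in both genotypes, and its response was -0.75 in KO and -3.88 in WT. Cd28, best known as a T cell receptor for co-stimulation, changed by -0.54 ± 0.05 in KO and -4.78 ± 0.09 in WT.

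Of 37 macrophage identity and surface receptor genes, 21 had a difference above 0 and 7 below, beside 15 and 11 with relative log expression factors and 27 and 2 with total counts. Of the 15 lowered in WT, Cd163, Cebpa, C3ar1, Cx3cr1 and Rasgrp3 lost the fall, 9 were blunted and Mertk was kept. Tfeb, a regulator of lysosomal genes, changed by -0.21 ± 0.08 in KO and -2.86 ± 0.13 in WT. Among 28 lysosomal genes, 14 were above 0 and 4 below (26 and 1 with total counts). Myc moved in opposite directions: 45.2, 49.2 and 45.6 CPM in KO with LTA and 15.3, 16.8 and 17.7 in untreated KO, against 12.4, 10.5 and 11.3 in WT with LTA and 30.3, 27.5 and 27.7 in untreated WT. It rose in KO by 1.49 ± 0.07 and fell in WT by 1.32 on the log2 scale, with no overlap between any groups.

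Cell cycle genes fell less in KO. Of 36 genes of DNA replication and the G1/S transition, 34 had a difference above 0 and 0 below (34 and 1 with relative log expression factors and 36 and 0 with total counts), with a median response of -0.997 in KO and -2.67 in WT. LTA lowered all 36 in both genotypes (background 26.5% in KO and 35.9% in WT), and of the 34 lowered at least 2-fold in WT, 27 were blunted, 5 lost (Cdk4, E2f1, E2f2, Ccne2 and Ung) and 2 kept (Ccne1 and Rfc3). Rrm2, a ribonucleotide reductase subunit gene, had 75.3, 73.4 and 78.9 CPM in KO with LTA and 183, 171 and 180 in untreated KO, against 10.8, 10.4 and 10.3 in WT with LTA and 141, 151 and 146 in untreated WT. The KO libraries with LTA lay between the untreated groups and WT with LTA. Mcm2, a subunit of the replicative helicase, changed by -0.96 ± 0.05 in KO and -3.31 ± 0.07 in WT, and Ccne2, cyclin E2, by -1.26 ± 0.09 in KO and -5.16 ± 0.16 in WT. Of 25 mitotic genes, 22 were above 0, and Mki67, a proliferation marker, was below 0, at -0.47 ± 0.07 in KO and 0.56 ± 0.07 in WT (-0.041 in WT with total counts). The cyclin gene Ccna2 changed by -0.97 ± 0.06 in KO and -2.69 ± 0.08 in WT.

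Cholesterol biosynthesis genes, targets of the transcription factor SREBP2, had 20 of 24 differences above 0 and 1 below (23 and 0 with total counts). Their median response was 0.17 in KO (-0.012 with total counts) and -0.78 in WT. Of 7 lowered at least 2-fold in WT, 6 lost the fall, among them Sqle, Acat2, Stard4, Msmo1 and Lss, and Dhcr7 was blunted. Sqle, squalene epoxidase, had 52.2, 47.5 and 46.0 CPM in KO with LTA and 39.8, 38.2 and 39.7 in untreated KO, against 16.7, 16.7 and 16.5 in WT with LTA and 47.2, 46.1 and 48.8 in untreated WT. KO with LTA overlapped untreated WT, and WT with LTA was the lowest group. Msmo1, a sterol oxidase gene, changed by -0.20 ± 0.05 in KO and -2.08 ± 0.06 in WT. Abca1, the cholesterol exporter gene, went the other way: its induction was 0.41 ± 0.06 in KO and 2.44 ± 0.06 in WT.

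**Figure D4:**
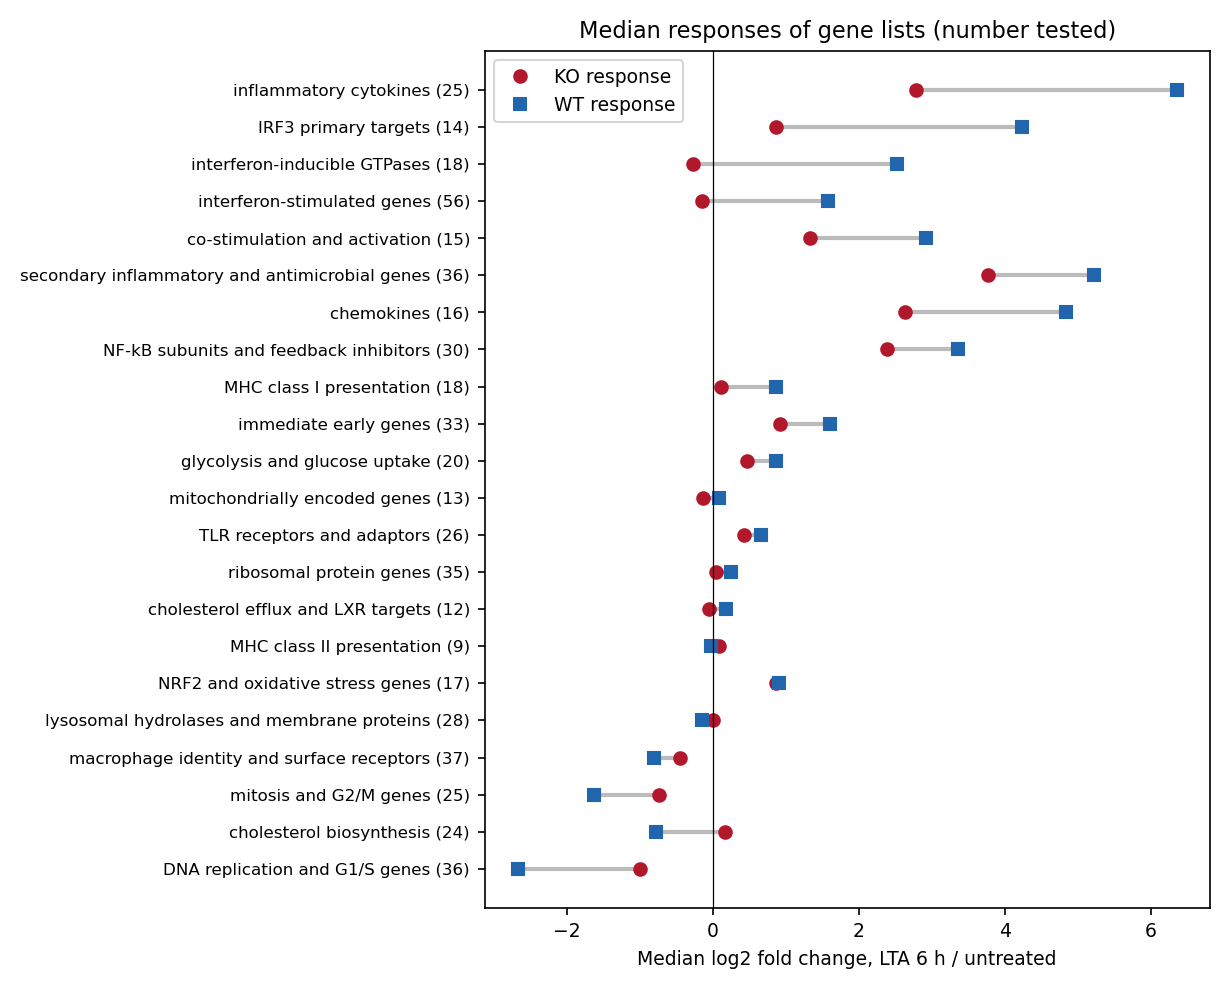
Median log2 fold change with LTA for 6 h in KO (circles) and WT (squares) for 22 gene lists, ordered by the median genotype difference, with the number of genes tested in parentheses. The KO median lies nearer 0 than the WT median for the lists at both ends, from 2.78 against 6.35 for inflammatory cytokines to -0.997 against -2.67 for DNA replication genes.

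Other lists had smaller medians, and their order depended on the scale. Over all 15119 genes tested, 20.1% of differences were below 0 and 24.8% above, and with total counts 1262 genes were below and 7971 above. A list count near these shares says nothing particular about that list. Glycolysis and glucose uptake genes had 15 of 20 differences below 0 and 1 above, with a median of -0.39 (9 and 8, median 0.031, with total counts); Hk2, hexokinase 2, changed by 1.63 ± 0.06 in KO and 3.05 ± 0.05 in WT. Immediate early genes had 18 of 33 below 0 and 9 above (13 and 14 with total counts). NRF2 and oxidative stress genes had 5 of 17 below 0 and 4 above (4 and 12 with total counts). MHC class II genes had 2 of 9 below 0 and 0 above (1 and 7 with total counts), LXR targets 5 of 12 below and 2 above (2 and 7), ribosomal protein genes 24 of 35 below and 0 above (0 and 34), and mitochondrially encoded genes 5 of 13 below and 0 above (0 and 7).

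The size of the WT response went with the class, in part by construction. The fixed 1.5-fold minimum leaves small WT responses a narrower range for blunted and a wider one for kept. Among genes induced 16-fold or more in WT, 28 of 288 were lost, 163 blunted, 96 kept and 1 stronger. Among those induced 2- to 4-fold, 287 of 1221 were lost, 324 blunted, 606 kept and 4 stronger. Of 94 genes lowered 16-fold or more in WT, 37 were lost, 52 blunted and 5 kept.

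The classes were then read in the LPS 6 h and LTA 2 h libraries, which entered none of the sorted contrasts. They shared the filter, the scaling step and the estimate of spread. They may also come from the same animals as the sorted libraries, so they are not an independent replication. In a fit of the 12 libraries alone, 427 induced genes were lost and 725 kept. With LPS for 6 h, KO was lower than WT in 405 of the 449 genes that lost LTA induction and higher in 0 (background 30.6% lower and 32.7% higher over all genes tested), with a median KO-to-WT log2 difference of -2.45. It was lower in 727 of 769 blunted genes (median -1.40) and in 568 of 930 kept genes (median -0.65). With total counts KO was lower in 386, 632 and 328 of these 3 classes and higher in 5, 56 and 210. Genes lowered by LTA were higher in KO with LPS in 501 of 594 lost cases (median 1.31) and 1185 of 1312 blunted cases (median 1.20). The median over all genes was 0.014. Cxcl10 differed by -6.44 with LPS for 6 h and by -5.43 with LTA for 6 h, and Tnf by -0.25 and -1.20.

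After 2 h of LTA the median KO-to-WT differences of the lost, blunted and kept classes were small and often of the other sign. Single genes differed more: of all genes tested, 175 were called higher and 230 lower in KO at least 2-fold. KO was higher than WT in 313 of 769 blunted induced genes (40.7%, background 7.83%) and lower in 25, with a median of 0.41 beside 0.029 over all genes. It was higher in 228 of 930 kept induced genes and lower in 8. Lost induced genes were higher in 16 and lower in 29 of 449 (3.56% and 6.46%, the lower share beside a background of 5.21%). Genes lowered by LTA at 6 h in WT were lower in KO at 2 h in 307 of 1312 blunted cases (23.4%, background 5.21%) and higher in 1. Of the lost cases, 108 of 594 were lower (18.2%) and 5 higher, with a median of -0.31. Nos2 was higher in KO by 2.06, Cd40 by 0.99 and Ccl3 by 1.33 on the log2 scale at 2 h, each past the threshold. The KO-to-WT log2 difference at 2 h was -1.15 for Cxcl10, -1.16 for Oasl1 and -2.60 for Tnfsf9, while the differences of Tnf (0.08) and Il6 (0.25) did not pass. Only the genotypes were compared at 2 h, and no 2 h response was computed, since those libraries stand apart from the untreated ones.

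**Figure D5:**
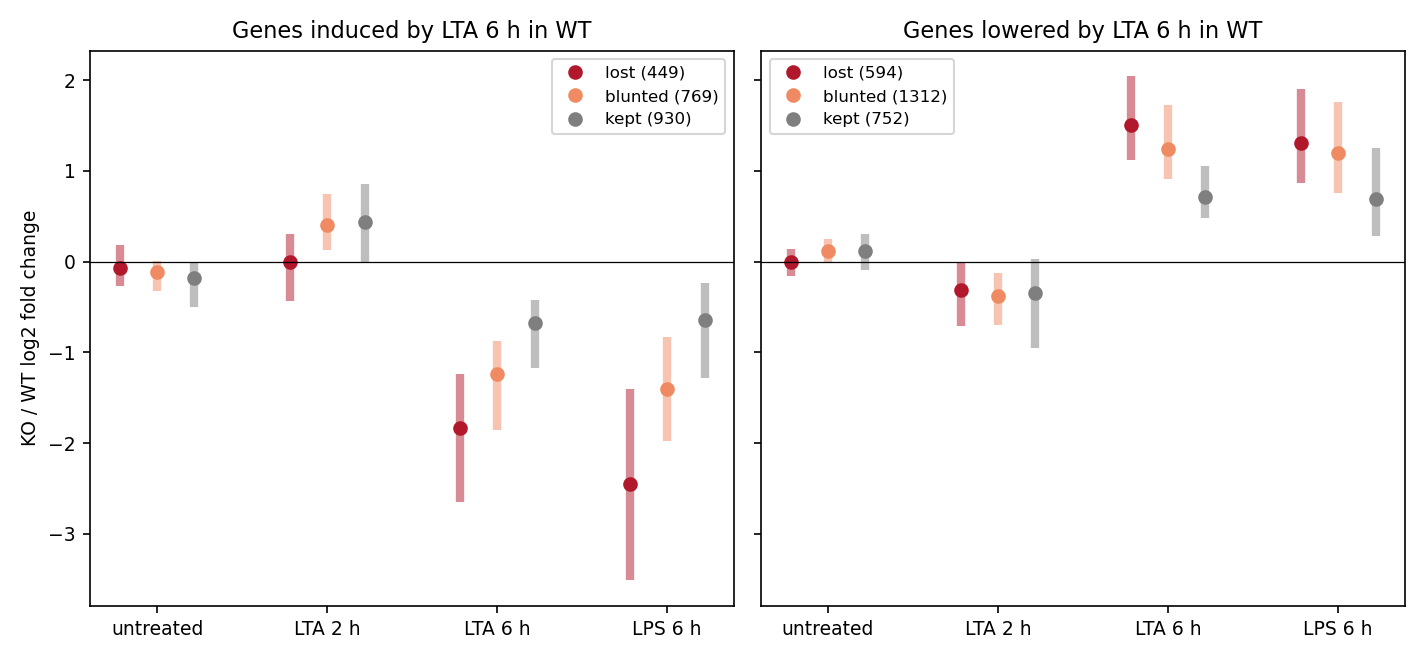
KO-to-WT log2 fold change (vertical axis) in untreated cells, LTA for 2 h, LTA for 6 h and LPS for 6 h, for genes induced (left) and lowered (right) by LTA for 6 h in WT, by response class; points are medians over genes and bars span the quartiles. The 6 h medians lie below 0 for induced classes and above 0 for lowered ones, with LTA and with LPS. The 2 h medians lie on the other side of 0, except that of lost induced genes, which is at 0.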

How the data were processed

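RNA was measured by sequencing in 30 libraries of mouse macrophages, 3 in each of 10 groups, of which the 12 untreated and LTA 6 h libraries enter the comparison. The authors deposited expected counts for each gene, of which 25.2% of those above 0 were not whole (tolerance 1e-06), and they were rounded to whole counts. The submitters' processing notes name STAR 2.7.11, Subread 2.1.1 with featureCounts, fastp 0.24.0 and SAMtools 1.22.1, and the builds mm10 and GRCm38. No source used here gives their order, the annotation or the strand setting, so antisense and overlapping genes are uncertain. GENCODE M21 named 26314 of 32361 gene IDs. The fit used edgeR 4.0.16 under R 4.3.3 (filterByExpr minimum count 10 and minimum total 15, 15119 genes, TMM, robust quasi-likelihood, all 30 libraries, 1 coefficient for each group and 20 residual degrees of freedom), with Benjamini-Hochberg adjustment within each contrast. Standard errors are the absolute log2 change over the square root of the quasi-likelihood F. The common biological coefficient of variation was 0.0411. A count of 0 allows 3 counts, 0.213 to 0.333 CPM in the 12 libraries, for counting error only. The script was tested on simulated data. P-values rest on the spread between libraries within groups, estimated over all 30 libraries together and moderated across genes.

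The 30 gene lists held 628 genes, 573 of them tested. The class members, lists, limits and tests were chosen with earlier results of these data known, and the counts of list members are descriptions. Genes were named from a preset list, the largest differences in each class, up to 4 members per list with the smallest p, and list exceptions. Ferritin pseudogenes that this rule picked were left out, since reads of near-identical copies cannot be assigned. Alternatives were other scalings, DESeq2 1.42.0, no filter, fits of 12 or 18 libraries, a replicate block, each replicate left out, and other limits of the classes. Promoters came from RefSeq, build GRCm38.p6.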

Additional observations from a re-analysis of the deposited data

Results flagged for a closer look

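Of the named genes, 12 were called in opposite directions with LTA in KO and in WT, and the difference itself was tested (edgeR quasi-likelihood, Benjamini-Hochberg adjustment at 0.05). Over all 15119 genes tested 338 were. Genes were named partly for a large difference or a small p, which favours such genes, so the count of 12 is no result about them. LTA lowered 10 of them in KO and raised them in WT. Their genotype difference in log2 change was -4.56 for Oasl1, -4.05 for Il15ra, -3.69 for Cmpk2, -2.70 for Ifi47, -2.42 for Tap1, -1.97 for Ifi204, -1.71 for Irgm1, -1.56 for Tlr3, -1.54 for Irf7 and -1.03 for Mki67. Of the 10, 4 are of the interferon-stimulated gene list and 2 are interferon-inducible GTPases, while Mki67 marks cycling cells. The other 2, Myc at 2.81 and Sqle at 1.82, were raised in KO and lowered in WT.

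The KO changes are small for most of these genes: they were -0.18 for Cmpk2, -0.20 for Irgm1 and 0.31 for Sqle, and only Myc moved at least 2-fold in both genotypes. With relative log expression factors all 12 had the same signs in both genotypes, and with total counts 11 had, at -0.52 in KO and 3.63 in WT for Oasl1 and 1.31 in KO and -1.92 in WT for Myc. Mki67 was the exception, at -0.66 in KO and -0.041 in WT with total counts, so that its opposite direction depends on the scale.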

How the results depend on the processing

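Among the 68 genes named, 1337 of 1360 recomputed differences kept their direction and their side of the threshold. With total counts Nfkbia turned to 0.20 and Tlr2 to 0.16. Mertk fell short of the threshold in 10 settings, at 0.36 without replicate 3 of KO with LTA (edgeR quasi-likelihood, Benjamini-Hochberg adjusted p = 0.283). Slc7a11 fell short at -0.37 without untreated KO replicate 2 (adjusted p = 0.134), at -0.45 without replicate 3 (0.0573) and with total counts, as did Acod1 with total counts. Tested against 1.5-fold, these 3 and Mmp9, Nfkbia, Lox and Tlr2 fell short, and Maff passed with DESeq2.

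Counts over all genes moved with the scale and the limits. With total counts 7971 differences were above 0 and 1262 below. Induced genes were then 236 lost, 385 blunted, 603 kept and 24 stronger, and lowered genes 1150 lost, 2823 blunted and 1 stronger. Relative log expression factors gave 3209 above and 3697 below, and DESeq2 2876 and 3453, so the split of signs turned with them. Tested against 1.5-fold, 2405 differences were called (1396 above, 1009 below), with 5 induced genes stronger, 789 lowered genes blunted and 1396 kept. With no filter 1397 induced genes were kept and 1 lowered gene was stronger. With no minimum of the difference 21 induced genes were stronger. A 2-fold minimum gave 422 induced genes blunted and 5 stronger, and 771 lowered genes blunted and 1377 kept. Calling lost under 10% gave 284 induced and 190 lowered genes, and under 50% 891 and 1746, with 327 and 160 blunted. A WT response of at least 4-fold left 162 lost, 445 blunted and 324 kept among induced genes, and 214, 575 and 156 among lowered ones. These limits change which genes are sorted by construction, and the cause of the scale's effect was not tested.

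Leaving out 1 replicate at a time, differences called ran from 6404 to 6504, above 0 from 3086 to 3669 and below 0 from 2802 to 3367. These fits tested 15706 to 15730 genes, beside 15119 in the main fit, so the gene set also changed. Untreated genotype differences ran from 1550 to 2007, with LPS for 6 h from 9592 to 9643 and with LTA for 2 h from 1863 to 1970. KO responses ran from 7243 to 7925 and WT responses from 10373 to 10889. Induced genes ran from 437 to 480 lost, 738 to 823 blunted, 950 to 1048 kept and 10 to 15 stronger. Lowered genes ran from 493 to 608 lost, 1181 to 1298 blunted, 773 to 862 kept and 0 to 1 stronger. Deviations from the group means of same-numbered libraries had correlations of -0.033 to 0.024, and those of differently numbered ones -0.042 to 0.0492. Deviations that are mostly counting noise would correlate little in any case, so this check cannot tell whether libraries share an animal. The replicate block gave 7148 calls, beside 7119 without it in the same 12 libraries. Untreated genotype differences numbered 2501 without the block. With it they were not read, since the blocks lie within a genotype and that contrast compares 1 block of each. The 2 h libraries were shallow, and Ifnb1 rested on few counts, which limits both.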
